A study of Homo sapiens with 6 samples.

Results

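The genes described here are 9 targets of the tumor suppressor p53, measured in C4-2 cells, a castration-resistant prostate cancer (CRPC) cell line derived from LNCaP. The genes were taken by their symbols, MDM2, TP53INP1, SESN1, BBC3, BTG2, GADD45A, ZMAT3, RRM2B and TP53I3, out of 55765 gene symbols in the count tables, and all 9 were among the 16835 genes with enough counts to be tested. RNA-seq had been performed on 6 libraries of this cell line, 3 from cells treated with the solvent control DMSO and 3 from cells treated with the synthetic androgen R1881 (methyltrienolone) at 1 nM for 72 h, a supraphysiological androgen level (SAL). All cells were grown in DMEM with serum, both groups are the same single cell line, and each group carries replicate numbers 1 to 3. The libraries were made from total RNA, and 6931042 to 9776990 counts per library remained after rRNA genes were removed.

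The transcription factor p53 is held at a low level in unstressed cells because MDM2, itself a p53 target, marks it for degradation. After DNA damage or other stress, p53 is stabilized and activates genes that stop the cell cycle, repair DNA, limit metabolic stress or start apoptosis. SAL treatment is known to inhibit the growth of C4-2 cells.

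In SAL-treated cells the estimated levels of these targets were close to those in DMSO or lower, with wide intervals for several of them. Their 9 log2 fold changes were all below 0, between -0.40 for SESN1 and -0.09 for MDM2, and SESN1 was the only one that passed the test (edgeR with the replicate number as a block, adjusted p = 0.0211). No gene of the 9 was called up and 1 was called down (11.1%), beside 11.5% and 9.37% of all genes tested. Counts this small among 9 genes do not set them apart from all genes. At an unadjusted p under 0.05 there were 2 of the 9, SESN1 and BTG2, both lower in SAL. DESeq2 with the same block called none of the 9 and also had 2 at an unadjusted p under 0.05. By the order of the DESeq2 adjusted p these were SESN1 (0.0849) and TP53INP1 (0.174), ahead of BTG2 (0.284). The share of all genes below that unadjusted threshold was not worked out. The median log2 fold change of the 9 was -0.15, beside -0.0011 over all genes tested. The levels of the groups overlapped for all 9. Over all genes tested only 7.51% had groups that did not overlap, so this too does not set the 9 apart.

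The cells carried the markers of their label. All 10 markers of luminal prostate cancer cells were tested, with a summed level of 2810 to 5310 CPM (counts scaled to library size) in DMSO and 5090 to 10400 in SAL, and 6 of the 10 were called up and none down. The 6 fibroblast markers summed to 2.97 to 11.1 CPM in DMSO and 2.43 to 9.76 in SAL, with COL1A2 and PDGFRA at 0 counts in every library. Most of this sum was COL1A1, the only 1 of the 6 that was tested, with a mean of 6.09 CPM in DMSO and 6.90 in SAL. The 5 leukocyte markers summed to at most 0.329 CPM, with PTPRC and CD3E at 0. Over all genes tested, 77.1% of the sum of squares of log2 CPM lay between replicate numbers and 16.8% between treatments, so every change is given within same-numbered pairs. A level that is lower in a bulk library cannot be told apart from fewer cells that express the gene.

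Binding sites of p53 consist of a pair of half-sites of 10 bases each with a conserved core of 4 bases. In the 2500 bases on each side of the annotated start, a full p53 site with both cores intact, the half-sites next to each other and at most 1 mismatch in its 20 bases was found for 80 of 19894 protein-coding genes (0.402%, GRCh37, the assembly of hg19). Of the 9 genes, 3 held such a match, ZMAT3, GADD45A and RRM2B, each in an intron downstream of the start. The sites of ZMAT3 and GADD45A are shown as examples of the sequence that p53 recognizes, with the cores in capitals.
ZMAT3: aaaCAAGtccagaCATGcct
GADD45A: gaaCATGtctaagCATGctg
The ZMAT3 site lies at chr3:178787976-178787995 on the minus strand, in intron 1 at 1612 bases from the start, without a mismatch. The GADD45A site lies at chr1:68152458-68152477 on the plus strand, in intron 3 at 1583 bases from the start, with 1 mismatch. The RRM2B match, also with 1 mismatch, lies in intron 1 at 2112 bases from the start. These 3 genes each had a log2 fold change of -0.14, and none passed the test.

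MDM2 is transcribed from an upstream start and from an internal start in its first intron, and the internal one is known as its p53-responsive promoter. Single half-sites with the core intact and at most 1 mismatch were searched in the 250 bases before each annotated start (RefSeq, GRCh38.p14), on the strand of the gene, which covers both strands because a half-site reads alike on either. For 6 of the 9 genes there were 12 such windows. The 2 windows of the internal start of MDM2, which lie 7 bases apart, each held 2 half-sites, a number reached by 5% of 35116 windows. The stretch from 120 to 21 bases before this start, chr12:68808897-68808996 on the plus strand, is shown with its half-sites in capitals, since MDM2 is the gene whose level is most widely read as a gauge of p53 activity.
MDM2: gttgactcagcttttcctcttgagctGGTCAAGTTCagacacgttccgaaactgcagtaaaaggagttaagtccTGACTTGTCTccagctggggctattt
SESN1, the only gene of the 9 that was called, held a half-site without mismatch 49 bases before an internal start, and the stretch from 80 to 21 bases before it, chr6:109009009-109009068 on the minus strand, is shown with that half-site in capitals.
SESN1: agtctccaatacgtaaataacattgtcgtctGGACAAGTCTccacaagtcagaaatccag
A half-site without mismatch was present in 5.57% of all windows, and at least 1 half-site with up to 1 mismatch in 28%, so a single match is common. These matches describe the sequence and do not show that p53 was bound in these cells.

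MDM2 encodes the ubiquitin ligase that degrades p53 and lies on chromosome 12 from 69201957 to 69239324 (GRCh37). Its level was 362, 270 and 376 CPM in DMSO replicates 1, 2 and 3, and 351, 260 and 337 CPM in the SAL replicates. Each SAL library was slightly below its DMSO partner, and replicate 2 was the lowest in both groups. SAL and DMSO differed by a log2 fold change of -0.09 (standard error, SE, 0.09, edgeR adjusted p = 0.537), and its 95% interval ran from -0.28 to 0.10. With 1978 to 2923 counts per library, this is the most precise of the 9 estimates, and the upper end of the interval is a fold of 1.07. Without replicate 3 the estimate was -0.052. Other annotated genes overlap 9.45% and 1.6% of its exon length on the other strand and 5.29% on the same strand. The counts do not tell the strands apart.

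TP53INP1, on chromosome 8 from 95938200 to 95961606, encodes a nuclear protein that promotes p53 phosphorylation and autophagy. It had 231, 374 and 363 CPM in the DMSO replicates and 263, 204 and 285 CPM in the SAL replicates. The pairs disagreed, since SAL was higher in pair 1 by 0.19 on the log2 scale and differed by -0.87 and -0.35 in pairs 2 and 3. Over the pairs this gave -0.35 (SE 0.19, edgeR adjusted p = 0.292), with an interval from -0.82 to 0.13. The value depended on which pairs were used. Without replicate 1 the log2 fold change was -0.61 with an adjusted p of 4.39e-08 by edgeR. Without replicate 2 it was -0.099 with an adjusted p of 0.65, and with no filter on low counts it was -0.33 with an adjusted p of 0.00680. Other genes also had far smaller edgeR adjusted p without replicate 1 or with no filter. GDF15, for example, had 2.03e-51 and 2.7e-44, beside 7.65e-05 with all pairs and the filter. Adjusted p of these 2 settings are therefore not comparable with the others.

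The arrest genes BTG2 and GADD45A did not pass the test. BTG2, an antiproliferative protein that recruits the deadenylase complex to mRNA, lies on chromosome 1 from 203274619 to 203278730. It had 11.2, 68.9 and 46.4 CPM in the DMSO replicates and 10.5, 60.6 and 29.7 CPM in the SAL replicates. SAL was lower in each pair, by values from -0.08 in pair 1 to -0.64 in pair 3, while the levels themselves spread 6.56-fold from the lowest to the highest library. Its estimate of -0.33 (SE 0.13, edgeR adjusted p = 0.0895) had an interval from -0.61 to -0.05. BTG2 passed the test without replicate 1, with a log2 fold change of -0.39 and an adjusted p of 0.00925 by edgeR, and after levels were adjusted for exon GC and length, with -0.38 and an adjusted p of 0.0297. Without replicate 3 its log2 fold change was -0.15.

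GADD45A, on chromosome 1 from 68150884 to 68154017, encodes a stress protein that binds PCNA and inhibits the mitotic kinase CDK1. It had 12.5, 9.85 and 7.08 CPM in the DMSO replicates and 11.01, 9.43 and 6.28 CPM in the SAL replicates, from 51 to 101 counts per library. Each SAL library was just below its partner, and replicate 1 was the highest in both groups. For GADD45A the log2 fold change was -0.14 (SE 0.18, edgeR adjusted p = 0.652), and the upper end of its interval was a fold of 1.19. After the adjustment for exon GC and length it was -0.23, with an adjusted p of 0.377.

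SESN1 and RRM2B belong to the arm of the program that protects the cell during arrest. SESN1, on chromosome 6 from 109305512 to 109416049, encodes sestrin 1, which restrains mTORC1 signaling and supports antioxidant defence. It had 58.0, 43.6 and 53.4 CPM in the DMSO replicates and 50.2, 27.8 and 41.6 CPM in the SAL replicates. All 3 pairs were lower in SAL, by -0.21, -0.64 and -0.36 on the log2 scale, although SAL replicate 1 lay above DMSO replicate 2. SESN1 fell to a fold of 0.759 (95% interval 0.642 to 0.898), or -0.40 on the log2 scale (SE 0.11, edgeR adjusted p = 0.0211). SESN1 was not called by DESeq2 with the block, which gave an adjusted p of 0.0849. It was also not called by edgeR when replicate 2 was left out (-0.30, adjusted p = 0.104), when replicate 3 was (-0.42, adjusted p = 0.191), or when the pairing was ignored (-0.37, adjusted p = 1.00). An antisense gene overlaps 4.99% of its exon length, and the counts do not tell the strands apart.

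RRM2B, on chromosome 8 from 103216730 to 103251189, encodes the p53-inducible small subunit of ribonucleotide reductase, which supplies deoxynucleotides for DNA repair outside S phase. It had 181, 122 and 195 CPM in the DMSO replicates and 198, 90.8 and 177 CPM in the SAL replicates. SAL was higher in pair 1 and lower in pairs 2 and 3, with differences of 0.13, -0.43 and -0.14. For RRM2B the estimate was -0.14 (SE 0.11, edgeR adjusted p = 0.408), and the upper end of the interval was a fold of 1.06. Without replicate 1 it was -0.28 with an adjusted p of 0.0331 by edgeR, and without replicate 2 it was -0.02.

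ZMAT3, BBC3 and TP53I3 stand closest to the tumor-suppressive and death-inducing output of p53. ZMAT3, on chromosome 3 from 178677909 to 178790003, encodes a zinc finger protein that binds RNA and affects splicing and mRNA stability. Its level was 42.4, 73.7 and 107 CPM in the DMSO replicates and 45.2, 66.3 and 84.5 CPM in the SAL replicates. The order of the replicates was the same in both groups, and the pairs differed by 0.09, -0.15 and -0.34. Its log2 fold change was -0.14 (SE 0.11, edgeR adjusted p = 0.384), with a fold of 1.06 at the upper end of the interval. It was -0.25 without replicate 1 (edgeR adjusted p = 0.0804) and -0.033 without replicate 3 (edgeR adjusted p = 0.949).

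BBC3, on chromosome 19 from 47724079 to 47736023, encodes PUMA, a BH3-only protein that neutralizes the antiapoptotic members of the BCL2 family. Only 4 to 52 counts per library fell on it, or 1.36, 5.74 and 2.27 CPM in the DMSO replicates and 0.512, 5.70 and 2.59 CPM in the SAL replicates. Replicate 2 was the highest in both groups, and the levels spread 11.2-fold. The estimate of -0.15 (SE 0.33, edgeR adjusted p = 0.798) had an interval from -0.85 to 0.54, which reached a fold of 1.46 upward. Without replicate 1 the estimate turned to 0.06.

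TP53I3, on chromosome 2 from 24300303 to 24308731, encodes a quinone oxidoreductase linked to the oxidative stress that precedes p53-driven apoptosis. It had 21 to 60 counts per library, which gave 7.43, 4.38 and 2.81 CPM in the DMSO replicates and 5.63, 3.18 and 2.96 CPM in the SAL replicates. SAL was lower in pairs 1 and 2 and slightly higher in pair 3. TP53I3 thus had a log2 fold change of -0.29 (SE 0.25, edgeR adjusted p = 0.462), and the interval reached a fold of 1.18 upward.

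**Figure D1:**
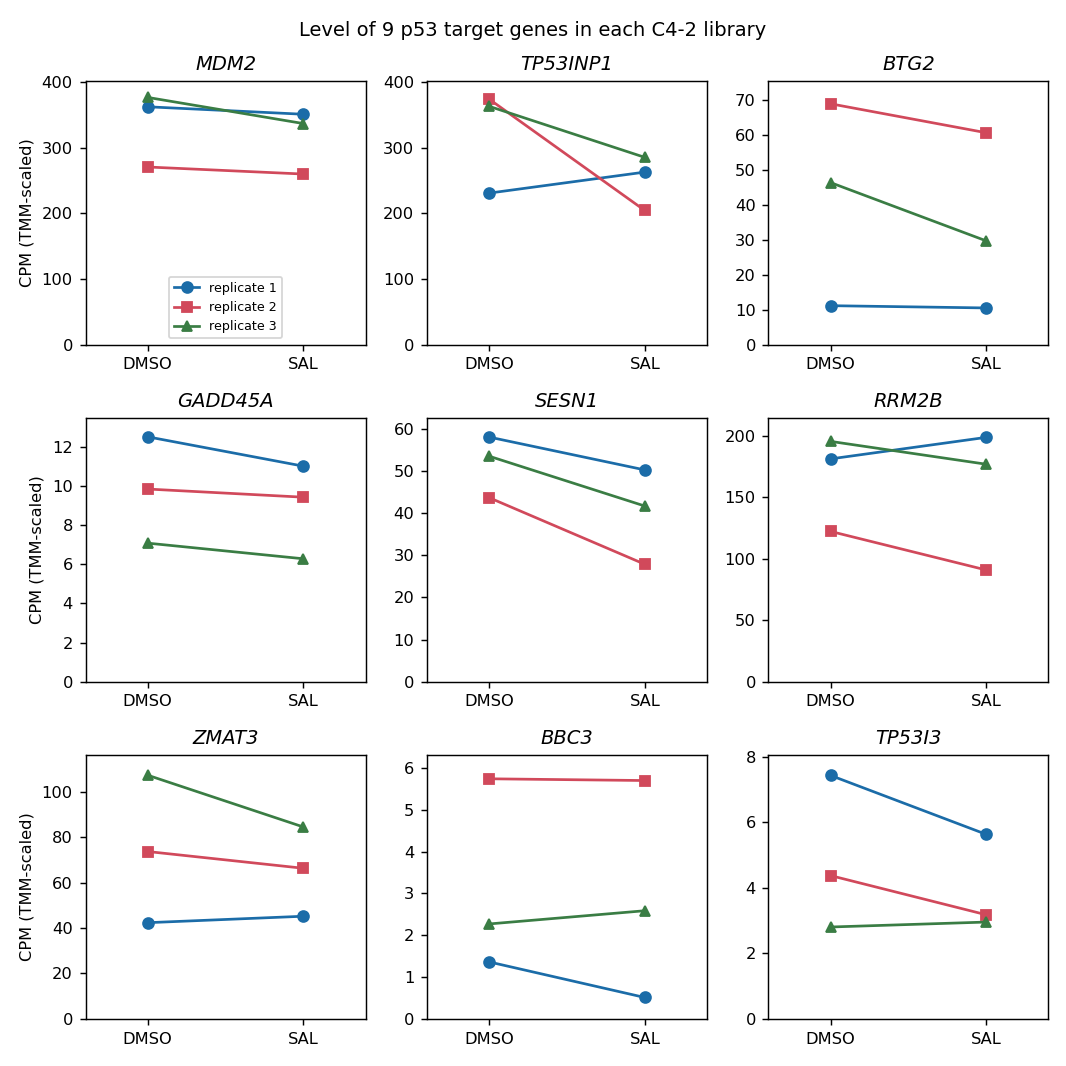
Level of each of the 9 genes in CPM (vertical axis, from 0, TMM-scaled) in the DMSO and SAL library of each replicate number, with a line joining each pair. SESN1, BTG2, GADD45A and MDM2 are lower in SAL in all 3 pairs, and for most genes the lines lie further apart from each other than they fall.

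In 4 of the 9 genes (MDM2, SESN1, BTG2 and GADD45A) all 3 pairs changed downward, and in the other 5 the pairs differed in sign, beside 51.2% of all genes tested whose pairs all had 1 sign. Of the 9 upper interval ends, that of BBC3 was the highest, at a fold of 1.46, and the other 8 were at or below 1.19. In MDM2, ZMAT3 and RRM2B the upper ends were between 1.06 and 1.07. The lower ends ran from a fold of 0.556 in BBC3, 0.563 in TP53I3 and 0.565 in TP53INP1 to 0.824 in MDM2. Those of SESN1, BTG2 and GADD45A were 0.642, 0.657 and 0.695, and those of RRM2B and ZMAT3 were 0.772 and 0.773.

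The spread of these genes lay mostly between replicate numbers. In 7 of the 9, from 88.2% (TP53I3) to 96.8% (BTG2) of the sum of squares of log2 CPM was between replicate numbers, and the treatment took from 1.95% (BTG2) to 6.45% (TP53I3). SESN1 had 58.5% between replicate numbers and 34.5% between treatments, and TP53INP1 had 24.6% and 29.2%, with 46.1% left to the disagreement of its pairs. The median over all genes tested was 85.4% between replicate numbers and 5.88% between treatments.

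The libraries also differed by replicate number in how levels followed the GC content of the exons. Across genes, the deviation of log2 CPM from the gene mean correlated with GC content at -0.45 and -0.54 in the libraries of replicate 1, at 0.60 and 0.70 in replicate 2, and at -0.20 and -0.09 in replicate 3 (Pearson's r, DMSO and SAL, 14138 genes that share the library, so no p is given). BBC3, with 64.4% GC, and BTG2, with 50.6% GC, were highest in replicate 2 and lowest in replicate 1. RRM2B, MDM2 and SESN1, with 37.5% to 41.2% GC, were lowest in replicate 2 in both groups. ZMAT3 and TP53INP1 have a GC content within that range, 40.0% and 39.4%, and did not share this order, with ZMAT3 lowest in replicate 1 and TP53INP1 in replicate 2 highest of the DMSO and lowest of the SAL libraries. GADD45A (57.8% GC) and TP53I3 (56.1% GC) did not follow this order and were highest in replicate 1. The part of GC content in the differences between replicate numbers was not tested.

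**Figure D2:**
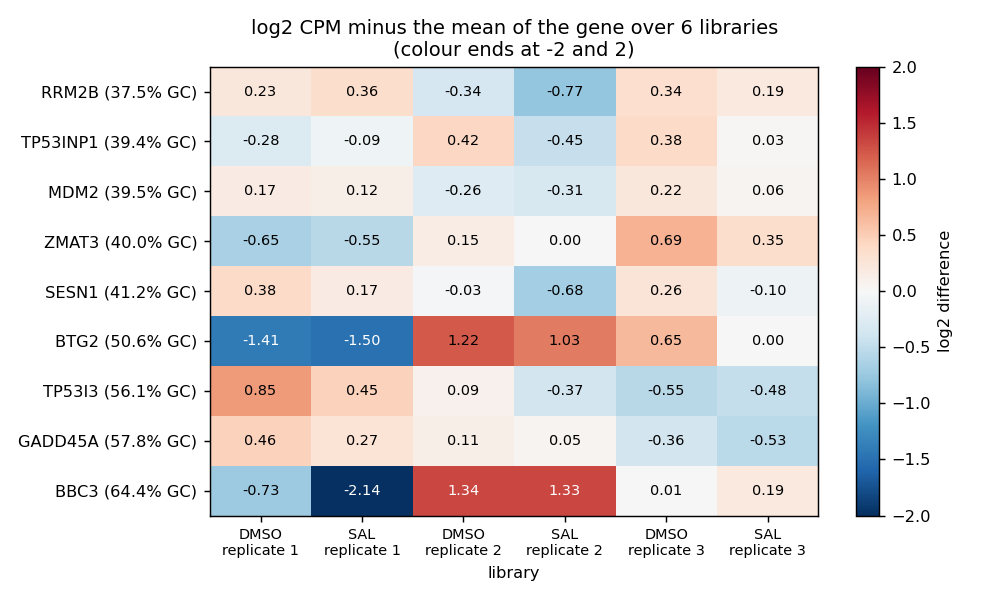
Log2 CPM of each gene (rows, by GC content of the exons) minus its mean over the 6 libraries (columns, by replicate number), with the value in each cell and the color from -2 (blue) to 2 (red). Same-numbered DMSO and SAL libraries resemble each other, as in BTG2 with -1.41 and -1.50 in replicate 1 against 1.22 and 1.03 in replicate 2.

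Per kilobase of annotated exon, the genes spanned a wide range of levels. The median over the 6 libraries was 48.5 CPM per kb for TP53INP1, 41.4 for MDM2, 33.2 for RRM2B and 13.8 for BTG2. SESN1, ZMAT3 and GADD45A followed with 6.44, 6.20 and 5.01 CPM per kb, and TP53I3 and BBC3 were lowest with 1.63 and 0.762 CPM per kb. Most neighbors in this order overlapped over the libraries, and only GADD45A (lowest 3.26 CPM per kb) stayed above the next gene, TP53I3 (highest 3.22). The lengths are of all annotated exons together, so genes with long alternative ends appear lower than their main transcript would.

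Of 15 relatives and upstream regulators of p53, 14 were tested. Of these, 2 were called down (14.3%, beside 9.37% of all genes), 1 was called up (7.14%, beside 11.5%) and 11 did not pass. CHEK1 and CHEK2, the kinases that signal DNA damage to p53, both fell. CHEK1 went from 82.5 ± 43.6 to 56.8 ± 30.0 CPM (SD, n = 3), or -0.53 on the log2 scale, with pairs at -0.49, -0.43 and -0.65 (edgeR adjusted p = 0.00130). CHEK2 went from 43.0 ± 11.8 to 30.1 ± 6.87 CPM, a log2 fold change of -0.51 with pairs at -0.60, -0.37 and -0.55 (edgeR adjusted p = 0.00450). HIPK2, a kinase that phosphorylates p53 under severe damage, rose from 343 ± 203 to 599 ± 337 CPM, with pairs at 0.93, 0.76 and 0.82 and an edgeR adjusted p of 8.77e-06. MDM4, the partner of MDM2 that blocks p53 activity, had a log2 fold change of -0.27 (edgeR adjusted p = 0.0670). It was called down without replicate 1 (-0.37, edgeR adjusted p = 0.0033) and after the adjustment for exon GC and length (-0.28, edgeR adjusted p = 0.0153), and was -0.18 without replicate 2. Without replicate 3, the number called down in this list was 0, beside 2.84% of all genes. The edgeR adjusted p were then 0.111 for CHEK1 and 0.108 for CHEK2.

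The other p53 targets moved in both directions. Of 84 such genes named from general knowledge, 74 were tested, 16 were called down (21.6%, beside 9.37% of all genes), 6 were called up (8.11%, beside 11.5%) and 52 did not pass. The remaining 10 had at most 11 counts in any library. The median log2 fold change of the 74 was -0.12, with 43 lower and 31 higher. Without replicate 3, 8 were called down and 2 up, beside 2.84% and 4.41% of all genes. Without replicate 1 there were 19 down and 12 up, beside 11.7% and 14.6% of all genes. Without the block there were none in either direction, beside 0.0178% and 0.107% of all genes.

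CDKN1A, which encodes the cell cycle inhibitor through which p53 imposes arrest, was among those that did not pass. It had 16.9, 72.1 and 47.4 CPM in the DMSO replicates and 16.5, 90.0 and 44.2 CPM in the SAL replicates. Only replicate 2 was higher in SAL, by 0.32 on the log2 scale, and pairs 1 and 3 differed by -0.03 and -0.10. Over all pairs the estimate was 0.08 (SE 0.12, edgeR adjusted p = 0.675), with an interval from -0.17 to 0.33, and it turned to -0.09 without replicate 2.

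Among the 9 arrest genes tested in this wider list, GDF15 was called up and E2F7 down (11.1% each, beside 11.5% and 9.37% of all genes). GDF15, a secreted stress cytokine, rose from 50.4, 237 and 76.8 CPM in the DMSO replicates to 94.9, 826 and 211 CPM in the SAL replicates, a log2 fold change of 1.41 (SE 0.15, edgeR adjusted p = 7.65e-05). Every pair rose, by 0.91, 1.80 and 1.46, while the groups overlapped. E2F7, a transcriptional repressor of E2F targets that is itself made during S phase, fell by 0.84 on the log2 scale (edgeR adjusted p = 0.000103), with pairs between -0.91 and -0.78.

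Of 17 cell death genes tested, 3 were called up (17.6%, beside 11.5% of all genes) and 4 down (23.5%, beside 9.37%). The death receptor gene TNFRSF10B rose from 139 ± 66.0 to 236 ± 95.8 CPM (SD, n = 3), or 0.80 on the log2 scale, with pairs at 0.89, 0.64 and 0.87 (edgeR adjusted p = 2.09e-05). Its neighbor and relative TNFRSF10A had a log2 fold change of 0.45 (edgeR adjusted p = 0.00963), and PERP, a desmosomal membrane protein with a role in p53-driven apoptosis, had 0.57 (edgeR adjusted p = 0.00265). TNFRSF10A was not called by DESeq2 with the block (adjusted p = 0.065) or by edgeR without replicate 3 (adjusted p = 0.188). PERP was not called without replicate 3 (edgeR adjusted p = 0.0604), and was 0.38 without replicate 1. In contrast, PMAIP1, which encodes the BH3-only protein NOXA, fell from 21.2 ± 7.47 to 10.5 ± 5.27 CPM, a log2 fold change of -1.04 with pairs at -0.81, -1.15 and -1.16 (edgeR adjusted p = 0.000232). SPATA18, which acts in mitochondrial quality control, fell by 1.49 on the log2 scale (edgeR adjusted p = 1.32e-05).

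Of the 5 DNA repair targets, 3 were called down (60%, beside 9.37% of all genes) and none up (beside 11.5%). DDB2, which recognizes ultraviolet damage, fell from 20.6, 19.1 and 24.6 CPM in the DMSO replicates to 11.7, 11.2 and 8.99 CPM in the SAL replicates. These groups did not overlap, and the log2 fold change was -1.01 (SE 0.17, edgeR adjusted p = 0.000525). Among the 12 metabolic and stress defence targets, 2 were called down (16.7%) and 1 up (8.33%), beside the same shares of all genes. The gene called up was ALDH4A1, a mitochondrial enzyme of proline breakdown, with a log2 fold change of 0.91 (edgeR adjusted p = 0.00348, and 0.0902 without replicate 3). Its exons overlap those of another annotated gene on the same strand over 41.8% of their length. None of the 5 feedback genes passed, beside 20.8% of all genes called in either direction, with log2 fold changes from -0.26 to 0.33.

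In the last group, targets with other roles, 6 of 26 were called down (23.1%, beside 9.37% of all genes) and 1 up (3.85%, beside 11.5%). RAP2B, a small GTPase, fell from 103, 278 and 224 CPM in the DMSO replicates to 29.5, 78.7 and 68.1 CPM in the SAL replicates, with pairs at -1.80, -1.82 and -1.71 and no overlap between the groups (log2 fold change -1.78, edgeR adjusted p = 4.27e-09). The lipid transporter gene ABCA12 fell by 1.81 on the log2 scale (edgeR adjusted p = 8.10e-06). ACER2, a Golgi ceramidase, was the gene called up, with 0.56 (edgeR adjusted p = 0.0196). Its call was lost with DESeq2 and the block (adjusted p = 0.112), and by edgeR when replicate 2 (adjusted p = 0.0772) or replicate 3 (adjusted p = 0.161) was left out.

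**Figure D3:**
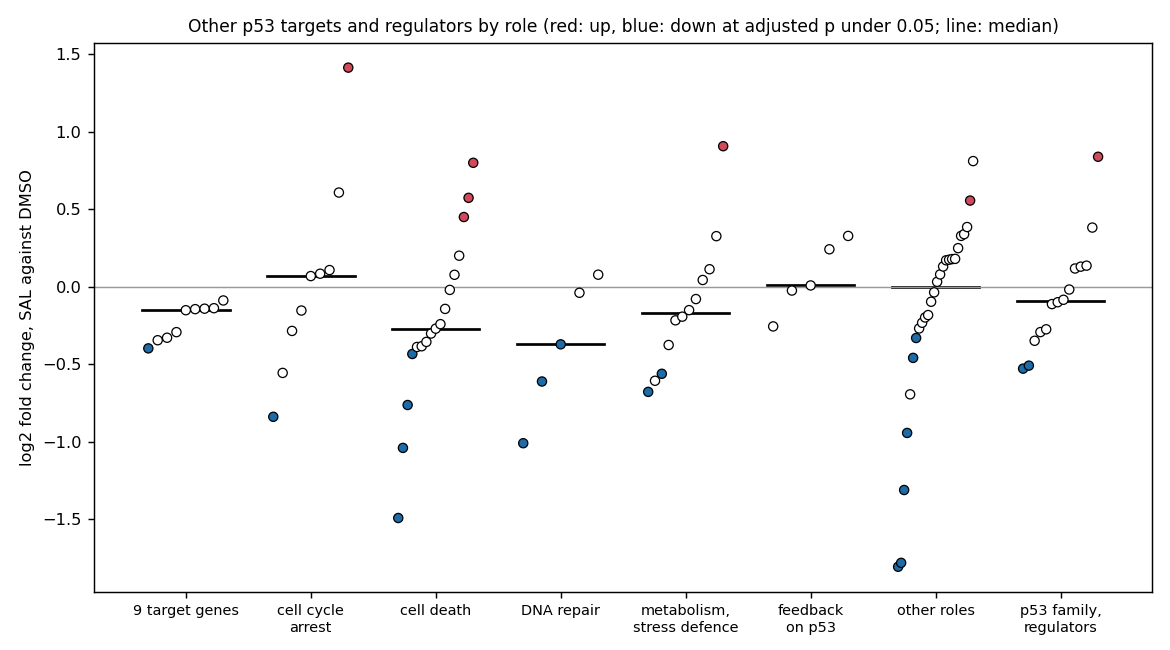
Log2 fold change of SAL against DMSO (vertical axis) for each tested gene of the 9 target genes, of the other p53 targets by role, and of the relatives and regulators of p53. Each point is a gene, filled red or blue where it was called up or down and white where it did not pass, with a line at the median. The 9 genes lie between -0.40 and -0.09, while other targets reach from -1.81 (ABCA12) to 1.41 (GDF15).

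Relatives of the 9 genes, mostly from the same protein family or enzyme, were compared in the same fit. All 3 sestrins were called down by edgeR, and DESeq2 with the block called neither SESN1 nor SESN2. SESN3, which is controlled by FOXO factors rather than p53, was by far the most abundant and fell from 668, 1463 and 1539 CPM in the DMSO replicates to 344, 530 and 639 CPM in the SAL replicates, a log2 fold change of -1.23 (SE 0.11, edgeR adjusted p = 7.65e-07). The groups of SESN3 did not overlap. SESN2 had a log2 fold change of -0.56 (edgeR adjusted p = 0.0182), with pairs at -0.72, -0.21 and -0.86, beside -0.40 in SESN1. The adjusted p of SESN2 was 0.0502 by DESeq2 with the block and 0.329 by edgeR without replicate 3.

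In the GADD45 family, GADD45G rose from 5.947, 5.196 and 4.677 CPM in the DMSO replicates to 15.1, 32.8 and 13.3 CPM in the SAL replicates. This was a log2 fold change of 1.87 (SE 0.24, edgeR adjusted p = 9.74e-05), every SAL library lay above every DMSO library, and the pairs differed by 1.31, 2.60 and 1.46. GADD45B had a log2 fold change of 0.70 (edgeR adjusted p = 0.0636), beside -0.14 in GADD45A.

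For ribonucleotide reductase, RRM1 and RRM2 were called down, and RRM2B was called down only when replicate 1 was left out. RRM1, the large subunit shared by both forms of the enzyme, went from 225 ± 95.5 to 131 ± 62.3 CPM (SD, n = 3), or -0.80 on the log2 scale, with pairs at -0.67, -0.85 and -0.89 (edgeR adjusted p = 1.87e-05). RRM2, the S-phase small subunit, had a log2 fold change of -0.69 with pairs at -0.46, -0.73 and -0.87 (edgeR adjusted p = 0.000180), beside 0.13, -0.43 and -0.14 in RRM2B.

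TP53INP2, an autophagy factor of the TP53INP family, rose by 0.93 on the log2 scale with pairs at 0.92, 0.85 and 1.01 (edgeR adjusted p = 6.73e-05), beside -0.35 in TP53INP1. In the antiproliferative BTG and TOB family, TOB1 had a log2 fold change of 0.52 (edgeR adjusted p = 0.00325, and 0.097 without replicate 3) and BTG3 of -0.90 (edgeR adjusted p = 0.00465), beside -0.33 in BTG2. ZMAT1 had -0.59 (edgeR adjusted p = 0.0472), and the other ZMAT relatives did not pass. The call of ZMAT1 was lost with DESeq2 and the block (adjusted p = 0.222), and by edgeR without replicate 1 (adjusted p = 0.144) or replicate 3 (adjusted p = 0.353). Of 17 relatives tested, 3 were called up (17.6%, beside 11.5% of all genes), 6 down (35.3%, beside 9.37%) and 8 did not pass. The lists overlap, since SESN2 is also counted among the other p53 targets and MDM4 among the regulators of p53. The differences between a target and its relatives were not tested.

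**Figure D4:**
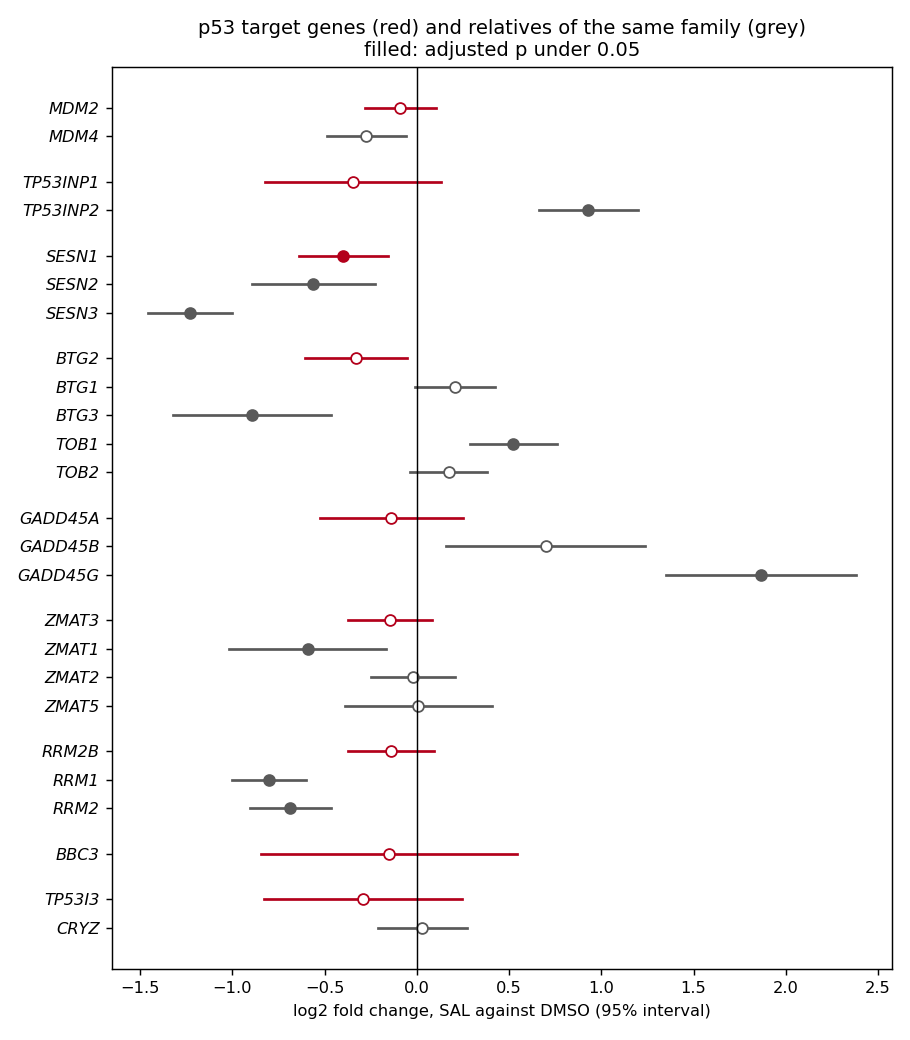
Log2 fold change of SAL against DMSO (horizontal axis) with its 95% interval for the 9 p53 targets (red) and relatives of the same family or enzyme (grey), filled where the adjusted p was under 0.05. The red intervals of SESN1 and BTG2 lie below 0 and the other red ones reach across it. Of the grey intervals, those of SESN2, SESN3, BTG3, RRM1, RRM2, ZMAT1 and MDM4 lie below 0. Those of GADD45B, GADD45G, TOB1 and TP53INP2 lie above 0, and the other grey ones reach across it.

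Of the genes outside the lists, SEMA3C and MANEA were among the 3 whose log2 CPM followed SESN1 most closely over the 6 libraries, with Pearson's r of 0.995 and 0.993, and the other was a locus known only by a clone name (r = 0.994). SEMA3C had a log2 fold change of -1.001 (edgeR adjusted p = 0.00240) and MANEA of -0.76 (edgeR adjusted p = 0.000136). The clone-named locus had -1.03 and did not pass (edgeR adjusted p = 0.236). The libraries are shared and few, so these r values are a description of likeness.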

How the data were processed

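The authors trimmed the reads (first 4 bases and low-quality ends), mapped only read 1 to hg19 with TopHat2 2.1.0 and counted it on gencode v19 exons with HTSeq 0.11.2. The library kit keeps the strand but the counting ignored it. Deposited were raw counts per gene symbol. The 5 tally rows, 36.0% to 55.1% of all rows' counts per library, were left out, as were 523 rRNA symbols, following the paper. SAL was compared with DMSO by edgeR 4.0.16 in R 4.3.3 (filterByExpr, TMM, robust quasi-likelihood test, Benjamini-Hochberg over 16835 genes, call at an adjusted p under 0.05), blocked on replicate number after the paired design of the paper. Same-numbered libraries deviated together from their group means (r = 0.89, 0.86 and 0.74), and the paper states that the RNA-seq was repeated independently, while the labels give replicate numbers only. CPM are TMM-scaled, pair differences use log2 CPM (prior count 2), standard errors follow from the estimate and the square root of F, and intervals use the t distribution. The fit was tested on simulated data. There it called 29% of the genes changed by 0.5 on the log2 scale and 71.7% of those changed by 1. Of its calls, 7.41% fell on unchanged genes. Only 100 and 99 tested genes of 16491 were changed there, by 0.5 and 1, far fewer than the 3508 called in the data. The simulated spread also followed the trend over genes, not each gene. These shares are therefore not those of the fit on the data. A gene that did not pass may still have changed, within its 95% interval.

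The 9 genes and all lists were chosen with earlier results of these data known. Named are the 9 genes, CDKN1A, MDM4, the 6 other targets called up and the 6 called down with the smallest adjusted p, every regulator or relative called, and the 3 genes most like SESN1. An item that the rule also names is not reported here. GADD45B and the other relatives that did not pass were named for comparison after their values were seen. Positions and exon properties come from GENCODE v44 lifted to GRCh37. Alternatives were DESeq2 1.42.0 with the block, DESeq2 size factors, no filter, no block, a minimum of 10 counts per library, retained rRNA genes, each replicate number left out and, added after seeing the data, an adjustment for exon GC and length.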

Additional observations from a re-analysis of the deposited data

How the results depend on the processing

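No alternative called any of the 9 genes up. The number called down was 1, and it was 0 with DESeq2 and the block, 0 with no replicate block, 2 with no filter, 2 with an adjustment for exon GC and length, and 0 to 4 when a replicate number was left out. It was 4 without replicate 1 (SESN1, TP53INP1, BTG2 and RRM2B), and 0 without replicate 2 or replicate 3. Of all genes, 11.7%, 7.92% and 2.84% were called down without replicate 1, 2 and 3, and 14.6%, 9.1% and 4.41% up. The share called down was 5.64% with DESeq2 and the block, 4.84% with no filter and 13.9% with the adjustment for exon GC and length. With no replicate block the shares were 0.0178% down and 0.107% up, beside 9.37% and 11.5% in the main fit. Without replicate 1 or with no filter, edgeR gave far smaller adjusted p to genes such as GDF15 and RAP2B too. The adjusted p of these settings are therefore not comparable with those of the other fits. Of the other p53 targets, 2 to 12 were called up and 8 to 19 down when a replicate number was left out, and 0 in each direction with no replicate block. Of the relatives and regulators of p53, 0 were called up or down with no replicate block, 4 were called down with that adjustment, and 0 to 3 were when a replicate number was left out. Over all genes, 1931 were called up and 1577 down, against 950 down with DESeq2 and the block, 18 and 3 with no replicate block, and 750 to 2443 up and 483 to 1955 down when a replicate number was left out. The estimate changed sign for BBC3 (0.063 without replicate 1, -0.35 to 0.063 over the replicate numbers left out) and CDKN1A (-0.087 without replicate 2, -0.087 to 0.17). BBC3 could not be tested with at least 10 counts in every library. Except as stated here and in the report, the cause of these changes was not tested. The lowest counts per library were 4 to 52 in BBC3 and 21 to 60 in TP53I3, and these genes had the widest intervals of the 9. Each p53 target, regulator or relative named as called lost its call with no replicate block, at adjusted p of 0.276 to 1.00.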
